A study of Mus musculus with 6 samples.

Results

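The postsynaptic scaffold and synaptic adhesion genes are 36 genes chosen by name, and each of them passed the filter on low values, which asked for a mean of 10 normalized counts or more across the 6 mice. The least abundant of them averaged 749. They are 36 of the 16127 genes that passed among 37620 listed. Expression was measured by RNA Seq in the pre-limbic cortex (PLc), which lies medially in the frontal lobe, of male C57Bl/6 mice aged 9 weeks. Saline mice 1, 6 and 10 received vehicle, ketamine mice 3, 5 and 9 received 30 mg/kg of ketamine, an NMDA receptor antagonist, and both groups were injected once a day for 5 days and dissected 2 days later. Values by mouse are given in this order, 1, 6 and 10 for saline and 3, 5 and 9 for ketamine. Each mouse gave 1 library of bulk tissue, so fewer cells of a type and less RNA per cell cannot be told apart.

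At an excitatory synapse, the postsynaptic density is built in layers. Membrane-associated guanylate kinases (MAGUKs, the Dlg genes) hold glutamate receptors and adhesion proteins through PDZ domains, GKAP proteins (the Dlgap genes) attach to the MAGUKs, and SHANK proteins join GKAP to Homer and to the actin cytoskeleton. At inhibitory synapses, gephyrin takes the place of this lattice and anchors glycine and GABA-A receptors. Adhesion proteins span the cleft: presynaptic neurexins and receptor phosphatases bind postsynaptic neuroligins, LRRTM, SLITRK and IL1RAPL1 proteins. Ketamine blocks a receptor that is tethered to this scaffold, and the comparison asks whether the transcripts of the scaffold and its adhesion partners differed 2 days after the last dose.

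Some libraries stood apart in markers of cell types and neighbouring regions. Levels are given as normalized counts, the reads of a gene after the authors' division by the size factor of the library. The tissue expressed Slc17a7, the vesicular glutamate transporter of cortical excitatory neurons, at 32973 to 49417 normalized counts with saline against 22152 to 40369 with ketamine. Over 11 markers of these neurons, 9 were lower in ketamine by the fitted values, the summed level was 50772 to 72048 with saline against 35541 to 58927 with ketamine, and their median log2 level, with the saline mean set to 0, was lowest in ketamine mouse 3, at -1.01. Oligodendrocyte markers were highest in saline mouse 10 for 10 of 10 genes, among them Mbp at 152192 counts against 16581 and 22353 in the other saline mice, and their sum was 47790 to 394833 with saline against 111031 to 169569 with ketamine. Olfactory bulb markers were highest in ketamine mouse 9 for 9 of 10 genes, with a sum of 1015 to 2382 with saline against 2962 to 19844 with ketamine. Striatal markers were highest in ketamine mouse 3 for 18 of 18 genes, with a sum of 14620 to 16515 with saline against 15270 to 91947 with ketamine, and Isl1 was the only marker at 0 in a library, in saline mice 1 and 6. Their part in the values of the scaffold and adhesion genes was not tested.

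Markers of GABAergic neurons had a sum of 32931 to 38460 with saline against 41396 to 59923 with ketamine, with 8 of 12 higher and 4 lower by the fitted values. Every ketamine mouse lay above every saline mouse for 7 of the 12 and below for 2, beside 5.69% and 4.66% of all genes tested. Sums of astrocyte, microglial and vascular markers were 116132 to 141298, 9491 to 11155 and 8238 to 8790 with saline, against 104181 to 139423, 9819 to 11049 and 6955 to 8204 with ketamine. The libraries held 26273436 to 32643726 reads, and the smallest count of any of the 36 genes in a library was 440 reads. Counting error was not estimated for each gene, and it was not set against the spread between mice.

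No gene of the scaffold or of its adhesion partners passed the test between ketamine and saline. The test was limma on log2(normalized count + 1) and the threshold was a Benjamini-Hochberg adjusted p of 0.05 over all 16127 genes. The smallest adjusted p among the 36 genes was 0.875, for Lrrtm4, and every gene other than Lrrtm4, Ptprd, Cadm2, Slitrk5 and Cnksr2 had an adjusted p of 0.999. limma called 0 genes in the whole table (0% of those tested), and an unadjusted p under 0.05 was found for 937 of all genes (5.81%, of which 3.44% higher and 2.37% lower in ketamine) and for 0 of the 36. DESeq2 on the recovered reads called 182 of all genes (1.13%, and 0.229% lower in ketamine) and edgeR 0 (0%), and both called 0 of the 36. At an unadjusted p under 0.05, DESeq2 had 6.54% and edgeR 6.24% of all genes, and each had 1 of the 36, which was Lrrtm4 in both (DESeq2 0.0466, edgeR 0.041, adjusted p 0.736 by DESeq2). By the fitted log2 fold change, 26 of the 36 genes were lower and 10 higher in ketamine, beside 53% lower among all genes tested. The 10% of genes with the longest merged exons held 17 of the 36. Of the 1610 genes in that class, 1052 were lower, with a median log2 fold change of -0.08. The median log2 fold change was -0.19 over the 36 genes and -0.01 over all genes tested.

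The sign of this median depended on 1 library. Without ketamine mouse 9 it was 0.01, with 17 of 36 genes lower, and without saline mouse 10 it was -0.32, with 34 lower. With both left out, a step added after seeing the data, it was -0.15, with 29 lower. limma then called 587 genes in the whole table (3.64%, and 0.787% lower in ketamine) but still 0 of the 36. The ketamine mice left in that fit were 3 and 5, and it called 16 of 18 striatal and 8 of 10 olfactory bulb markers higher. Whether this bears on the values of the 36 genes was not tested. An unadjusted p under 0.05 was then found for 22.9% of all genes and for 4 of the 36, namely Slitrk1, Slitrk5, Cadm2 and Cnksr2, each lower in ketamine. Without ketamine mice 3 and 5, in which striatal markers were high, the ketamine group was mouse 9 alone, and the median of -0.37, with 33 lower, is the level of that mouse. The groups did not overlap for 3 of the 36 genes. All ketamine mice lay above all saline mice for Lrrtm4, and below them for Ptprd and Lrrtm1. Among all genes tested, 5.69% had every ketamine mouse above and 4.66% every ketamine mouse below, so that 1 and 2 of 36 are near the background.

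**Figure D1:**
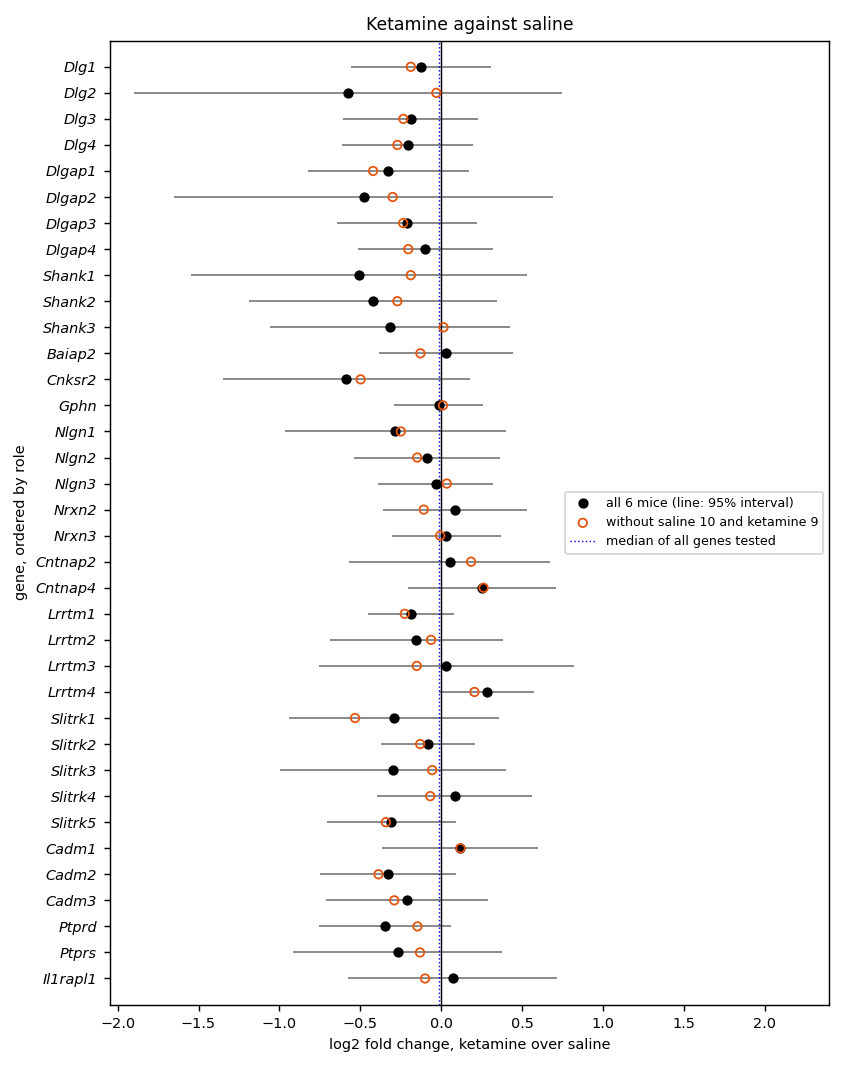
Log2 fold change of ketamine over saline (horizontal axis) for each of the 36 genes, ordered by role. Filled points use all 6 mice, with lines for the 95% interval of the limma fit, open points leave out saline mouse 10 and ketamine mouse 9, and the dotted line is the median of all genes tested at -0.01. Each of the 36 intervals includes 0, and the widest belong to Dlg2, Dlgap2 and Shank1.

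Saline mouse 10 and ketamine mouse 9 had the lowest levels of most of the 36 genes. On the log2 scale, with the saline mean set to 0, the median of the 36 genes was 0.21, 0.07 and -0.28 for saline mice 1, 6 and 10, against -0.07, 0.11 and -0.37 for ketamine mice 3, 5 and 9. Over all genes tested, these medians lay between -0.01 and 0.02. Ketamine mouse 9 had the lowest value of the 6 mice for 21 of the 36 genes and saline mouse 10 for 13, and together they were the lowest pair for 23 (63.9%, beside 16.6% of all genes tested). Saline mouse 1 had the highest value for 24 of the 36 genes. In ketamine mouse 3, 24 of the 36 genes were below the saline mean and 2, Dlgap1 and Lrrtm1, had their lowest value. The spread of a gene within a group, as a standard deviation of log2 values, had a median of 0.26 over the 36 genes and 0.19 over all genes tested in saline, and of 0.23 and 0.28 in ketamine.

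**Figure D2:**
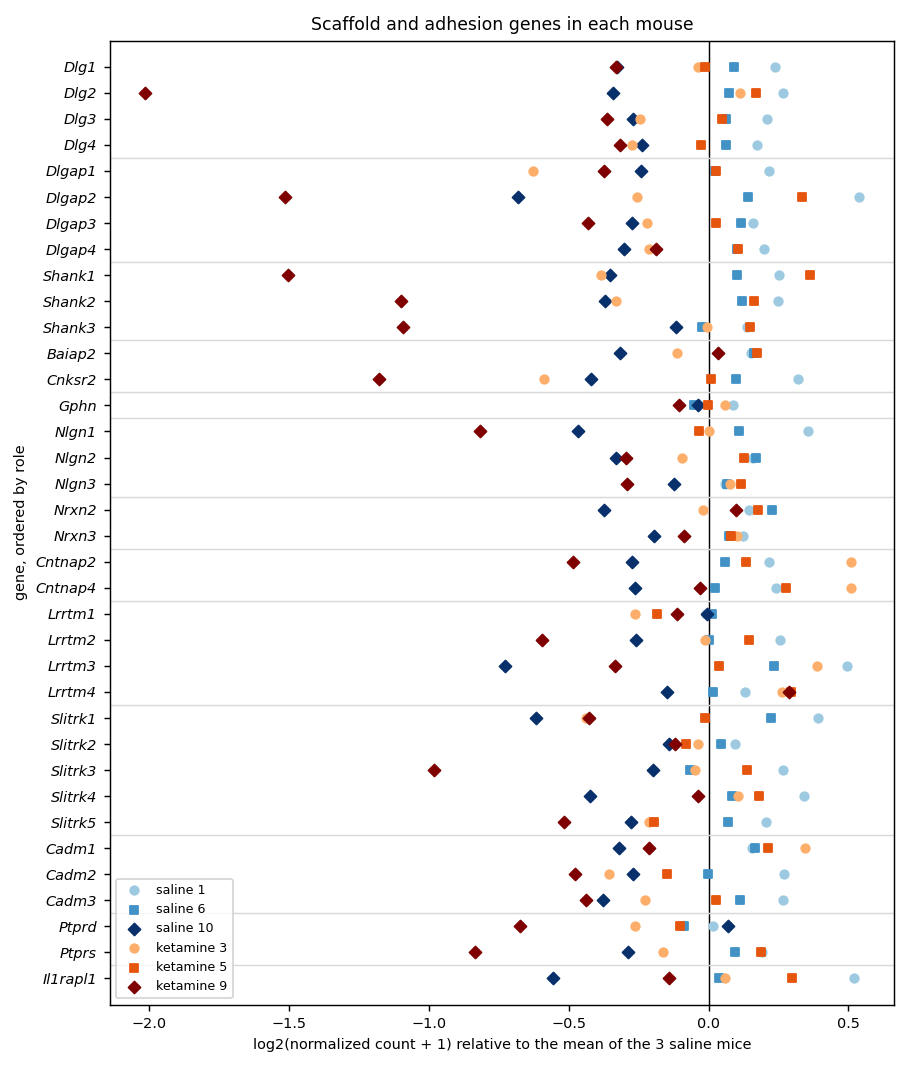
Log2(normalized count + 1) of each of the 36 genes in each mouse, as a difference from the saline mean (horizontal axis), with genes ordered by role and blue symbols for saline and orange to dark red symbols for ketamine. Saline mouse 10 and ketamine mouse 9 lie to the left for most genes, and ketamine mouse 9 reaches -2.01 for Dlg2.

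Levels were compared between genes as normalized counts per kb of merged exon length (GENCODE M1 on mm9). The 36 genes had a median of 607 per kb, beside 159 per kb over all genes tested. Dlg4, which encodes PSD-95, the most abundant MAGUK of the postsynaptic density, stood first at 4834 ± 688 per kb in saline mice (SD, n = 3), and no other of the 36 genes had a range in saline mice that reached it. Dlgap3 (2339 ± 368), Cadm3 (2243 ± 492), Ptprs (1909 ± 320) and Baiap2 (1651 ± 295) followed, and these neighbours overlapped in their saline ranges. The order, by the mean over 6 mice, ended with Lrrtm4 (187 ± 17.9), Cntnap4 (133 ± 22.9), Slitrk2 (145 ± 12.2) and Il1rapl1 (79.6 ± 28.7 per kb in saline mice, SD, n = 3). Of the 35 neighbouring pairs in the order, 31 had saline ranges that overlapped. The length used matters for genes with many transcripts. Per kb of the longest transcript, Dlg4 stayed first and Il1rapl1 last, while Dlgap1 moved from rank 10 to rank 4 and Ptprd from rank 29 to rank 20.

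**Figure D3:**
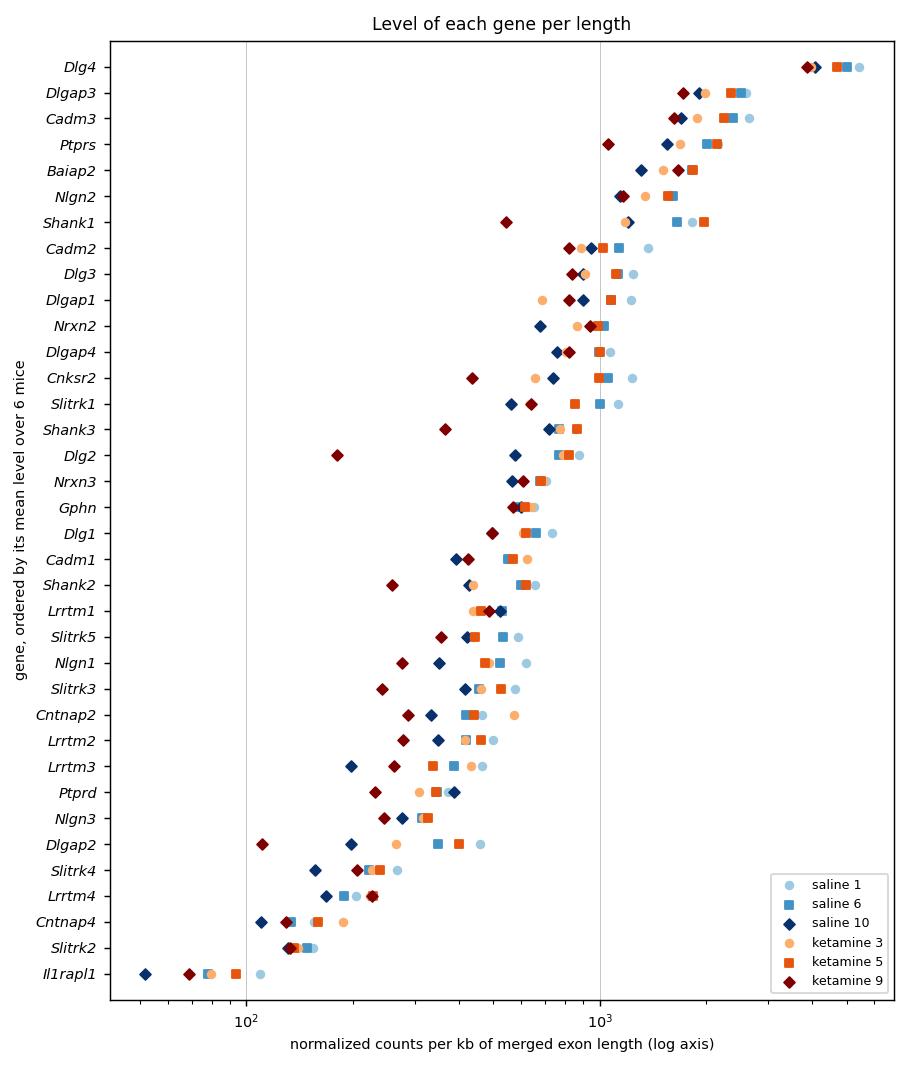
Normalized counts per kb of merged exon length (horizontal log axis) for each of the 36 genes, 1 symbol per mouse, ordered by the mean over 6 mice. Dlg4 averaged 4504 and Il1rapl1 80.1 per kb, and Dlg2, Shank1 and Shank3 in ketamine mouse 9 stand apart from the other 5 mice.

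The 4 MAGUK genes had log2 fold changes between -0.58 and -0.13. Dlg4 (ENSMUSG00000020886) lies in mm9 on chromosome 11, plus strand, from 69830587 to 69859034. It had 25212, 23356 and 18969 normalized counts with saline, and 18469, 21913 and 17941 with ketamine. Ketamine mouse 5 lay inside the saline range and the other ketamine mice just below it. The log2 fold change was -0.21 ± 0.172 (SE, 95% interval -0.61 to 0.20, adjusted p = 0.999 by limma, exact permutation p = 0.2). Dlg2, which encodes PSD-93, had the largest single deviation of the 36 genes. It lies on chromosome 7 from 97650473 to 99595513. Its counts were 9640, 8428 and 6318 with saline and 8657, 9005 and 1981 with ketamine, the last being mouse 9. With mouse 9 its log2 fold change was -0.58 (95% interval -1.90 to 0.75), and without that mouse it was 0.14. Dlg1 (SAP97) and Dlg3 (SAP102), which traffic receptors to the synapse, had log2 fold changes of -0.13 and -0.19, and in both genes saline mouse 10 and ketamine mouse 9 were the lowest pair.

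The 4 GKAP genes were lower by the fitted values as well, with log2 fold changes between -0.48 and -0.10. Dlgap3, the most abundant of them per length, had 11708, 11347 and 8664 normalized counts with saline and 8988, 10672 and 7772 with ketamine, a log2 fold change of -0.21 ± 0.184 (SE). Its groups overlapped. Dlgap1 had 20911, 18294 and 15240 counts with saline and 11645, 18328 and 13875 with ketamine, a log2 fold change of -0.33 ± 0.213 (SE). Here ketamine mouse 3 was the lowest, and ketamine mouse 5 was level with saline mouse 6. Dlgap2 had 1218 counts in saline mouse 10 and 682 in ketamine mouse 9, against 1634 to 2832 in the other 4 mice. Dlgap4 had the smallest log2 fold change of the family, at -0.10.

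Among the SHANK genes, ketamine mouse 9 stood far below the other mice in all 3. Shank1 had 15187, 13707 and 9988 normalized counts with saline, and 9782, 16403 and 4497 with ketamine. The highest and the lowest value were thus both from ketamine mice. Shank2 had 7011, 6411 and 4557 counts with saline and 4685, 6590 and 2751 with ketamine. Shank3, a gene whose loss causes Phelan-McDermid syndrome in people, had 6384 to 7611 counts with saline and 6892, 7673 and 3244 with ketamine. The log2 fold changes were -0.51 ± 0.442, -0.42 ± 0.326 (SE) and -0.32 for Shank1, Shank2 and Shank3, and without ketamine mouse 9 they were -0.01, -0.09 and 0.07. Shank3 shares 271 exon bases with Gm15609 on the other strand, which averaged 17.8 normalized counts.

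Of the remaining scaffold genes, Cnksr2 had the most negative log2 fold change of the 36 genes. It encodes a scaffold of the Ras pathway found at the postsynaptic density, and is located on the X chromosome from 154259368 to 154481249. Its values were 11520, 9879 and 6900 normalized counts with saline and 6140, 9293 and 4072 with ketamine, a log2 fold change of -0.59 ± 0.324 (SE, limma adjusted p = 0.995, 0.112 before adjustment). Ketamine mouse 5 exceeded saline mouse 10, so that the groups overlapped (exact permutation p = 0.2). Baiap2 encodes IRSp53, which links the scaffold to actin, and had 9054, 9128 and 6538 counts with saline and 7536, 9181 and 8329 with ketamine, a log2 fold change of 0.03. Its lowest value was that of saline mouse 10. Gphn, which encodes gephyrin, the scaffold of inhibitory synapses, was the most even of the scaffold genes. It had 2217, 2013 and 2035 counts with saline and 2173, 2085 and 1937 with ketamine. The log2 fold change of Gphn was -0.02 with a 95% interval of -0.29 to 0.26.

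The neuroligins are postsynaptic partners of neurexins. Nlgn2, which acts at inhibitory synapses, was the most abundant of them per length and had 9245, 9325 and 6588 normalized counts with saline and 7754, 9052 and 6744 with ketamine. The lowest values were again those of saline mouse 10 and ketamine mouse 9, and the log2 fold change was -0.09 ± 0.191 (SE). Nlgn1, which acts at excitatory synapses, had a log2 fold change of -0.28, and its lowest pair was the same, at 1528 and 1198 counts against 2062 to 2704 in the other mice. Nlgn3 had 3042 to 3463 counts with saline against 2706 to 3591 with ketamine, a log2 fold change of -0.03. Nlgn3 shares 749 exon bases with Med12 on the same strand, and reads there may not have been assigned to either gene.

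The neurexins were near the saline mean in ketamine mouse 9. Nrxn2 had 13384, 14174 and 9341 normalized counts with saline and 11932, 13695 and 12968 with ketamine, so that only saline mouse 10 stood low. Its log2 fold change was 0.09 ± 0.19 (SE). Nrxn3 had 7121 to 8879 counts with saline against 7670 to 8756 with ketamine, with a log2 fold change of 0.03. Of the CASPR genes, Cntnap2, whose protein gathers potassium channels along the axon, had 3346, 2999 and 2386 counts with saline and 4104, 3159 and 2060 with ketamine. Both extremes were ketamine mice, and the log2 fold change was 0.05. Cntnap4, a gene of interneurons, had 978, 841 and 691 counts with saline and 1180, 1003 and 811 with ketamine, a log2 fold change of 0.25 ± 0.194 (SE, limma adjusted p = 0.999, 0.235 before adjustment). For both CASPR genes, ketamine mouse 3 was the highest of the 6.

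The LRRTM family, leucine-rich repeat proteins that promote excitatory synapses, held genes of both directions. Lrrtm4 (ENSMUSG00000052581) lies on chromosome 6, plus strand, from 79968871 to 80760137 and encodes a receptor for heparan sulphate proteoglycans. It had 1253, 1158 and 1033 normalized counts with saline and 1374, 1405 and 1397 with ketamine. All ketamine mice lay above all saline mice, and they were close together (1392 ± 15.7 against 1148 ± 110, SD, n = 3 each). The fitted log2 fold change was 0.28 ± 0.125 (SE, 95% interval -0.01 to 0.58, limma adjusted p = 0.875, 0.0573 before adjustment), and the exact permutation p was 0.1, the smallest that 3 mice against 3 allow. It stayed between 0.21 and 0.35 when each mouse was dropped in turn. Lrrtm4 shares 1543 exon bases with Gm4409 on the other strand, which averaged 3.03 normalized counts.

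Lrrtm1, a neurexin ligand, had its groups in the opposite order. Its counts were 1582, 1607 and 1588 with saline, close together, and 1326, 1403 and 1473 with ketamine. Every ketamine value was below every saline value (log2 fold change -0.19 ± 0.113 SE, limma adjusted p = 0.999, 0.142 before adjustment, exact permutation p = 0.1). Lrrtm2 had 1981 to 2833 counts with saline against 1569 to 2622 with ketamine, and Lrrtm3 had 843 to 1973 and 1110 to 1832. For Lrrtm3, saline mouse 10 was the lowest of all mice and differed from saline mouse 1 by more than any ketamine mouse did from another.

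SLITRK proteins are postsynaptic and bind the receptor phosphatases PTPRD and PTPRS. Slitrk5 had 2827, 2568 and 2023 normalized counts with saline and 2113, 2138 and 1712 with ketamine. All ketamine mice lay below saline mice 1 and 6, and ketamine mice 3 and 5 lay above saline mouse 10. The log2 fold change was -0.31 ± 0.17 (SE, limma adjusted p = 0.995, 0.112 before adjustment). Slitrk1, the most abundant of the family per length, had 4784, 4262 and 2381 counts with saline and 2694, 3617 and 2715 with ketamine, a log2 fold change of -0.29. Here saline mouse 10 was the lowest of the 6. Without saline mouse 10 and ketamine mouse 9, a step added after seeing the data, the log2 fold change of Slitrk1 was -0.53. The limma p of that fit was 0.0112 (adjusted 0.105), and 22.9% of all genes then had an unadjusted p under 0.05. The ketamine mice left were 3 and 5, in which striatal markers were high. Slitrk3, which acts at inhibitory synapses, had 905 counts in ketamine mouse 9 and 1554 to 2149 in the others. Slitrk2 and Slitrk4, both on the X chromosome, had log2 fold changes of -0.08 and 0.08.

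The SynCAM genes encode immunoglobulin adhesion proteins that bind one another across the cleft. Cadm2 had 13460, 11136 and 9255 normalized counts with saline and 8714, 10050 and 8018 with ketamine, and only ketamine mouse 5 reached into the saline range. The log2 fold change was -0.33 ± 0.179 (SE, limma adjusted p = 0.988, 0.109 before adjustment). Cadm3, the most abundant SynCAM gene per length, had 16566, 14896 and 10605 counts with saline and 11760, 14038 and 10168 with ketamine, a log2 fold change of -0.21. Cadm1 was highest in ketamine mouse 3, at 6060, and had 3823 to 5349 counts with saline, a log2 fold change of 0.12.

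The presynaptic receptor phosphatases were both lower by the fitted values. Ptprd (ENSMUSG00000028399) occupies chromosome 4 from 75587142 to 77857865 on the minus strand, the longest span of the 36 genes at 2271 kb. Its counts were 8502, 7908 and 8831 with saline and 7009, 7831 and 5264 with ketamine. No ketamine mouse reached the saline range, although ketamine mouse 5 missed it by less than 100 counts. Ptprd was the only 1 of the 36 genes with its highest value in saline mouse 10. The log2 fold change was -0.35 ± 0.174 (SE, 95% interval -0.76 to 0.06, limma adjusted p = 0.945, 0.0853 before adjustment, exact permutation p = 0.1), and without ketamine mouse 9 it was -0.18. Ptprs had 15222, 14229 and 10914 counts with saline and 11908, 15166 and 7468 with ketamine, a log2 fold change of -0.27 ± 0.276 (SE), which was 0.01 without ketamine mouse 9. Il1rapl1, which encodes a partner of PTPRD and lies on the X chromosome, had 1019, 730 and 483 counts with saline and 741, 874 and 644 with ketamine, a log2 fold change of 0.07.

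By their medians, the 36 genes had long transcripts and long gene bodies, although not every one of them did. Their merged exons had a median length of 7117 bases, beside 3527 over all genes tested, and 17 of the 36 were in the longest 10% of genes. The median span in the genome was 138 kb, beside 21.97 kb, and 10 of the 36 spanned over 500 kb (27.8%, beside 1.19% of all genes tested). The 5 SLITRK genes, in contrast, had a median span of 8.82 kb, and the merged exons of Lrrtm1 measured 3033 bases. On the X chromosome there were 6 of the 36 (16.7%, beside 3.54%), namely Dlg3, Nlgn3, Slitrk2, Slitrk4, Il1rapl1 and Cnksr2.

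Exon length moved with the level of all genes in ketamine mouse 9. In that library, the median log2 level relative to the saline mean was 0.36 in the shortest of 10 equal classes of genes and -0.46 in the longest, and the slope was -0.16 per doubling of length over 16093 genes. Ketamine mouse 5 had a trend of the opposite sign, from -0.16 in the shortest class to 0.16 in the longest, with a slope of 0.07. In the other 4 libraries the slope lay between -0.03 and 0.04. The median of the 36 genes in ketamine mouse 9, at -0.37, was between those of class 9 (-0.28) and class 10. Among the 36 genes themselves, length and level in ketamine mouse 9 had a Pearson's r of -0.12, beside -0.25 over the 16093 genes. Genes are not independent replicates. The slope among the 36 genes was -0.09 per doubling of length. Ptprd, the longest at 22772 bases, was at -0.68 there, Dlgap1, with 16994, at -0.38, and Dlg2, with 10998, at -2.01. Nrxn2, with 13816 bases, was at 0.10, and Slitrk3, with 3731, at -0.98. These are single genes, and exon length as a cause of the values of the 36 genes was not tested. In saline mouse 10 the longest class was at -0.09, and the 36 genes were at -0.28. When each library was centred within 20 classes of exon length, a step added after seeing the data, the median log2 fold change of the 36 genes was -0.16, with 25 lower and 0 called, and Lrrtm4 was the 1 gene with an unadjusted p under 0.05 by limma (7.17% of all genes).

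**Figure D4:**
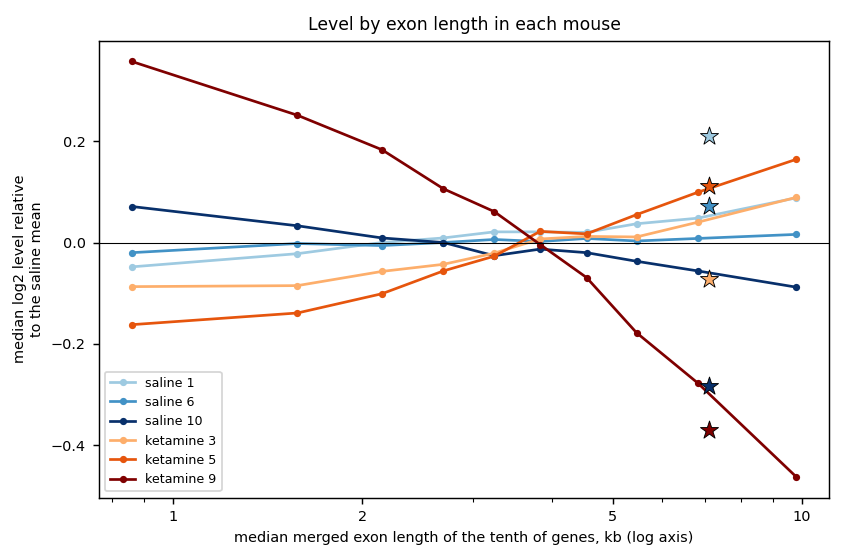
Median log2 level relative to the saline mean (vertical axis) in 10 equal classes of all genes ordered by merged exon length (horizontal log axis, kb), 1 line per mouse, with stars for the median of the 36 genes. The line of ketamine mouse 9 runs from 0.36 in the shortest class to -0.46 in the longest, and the stars of saline mouse 10 and ketamine mouse 9 are the lowest.

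**Figure D5:**
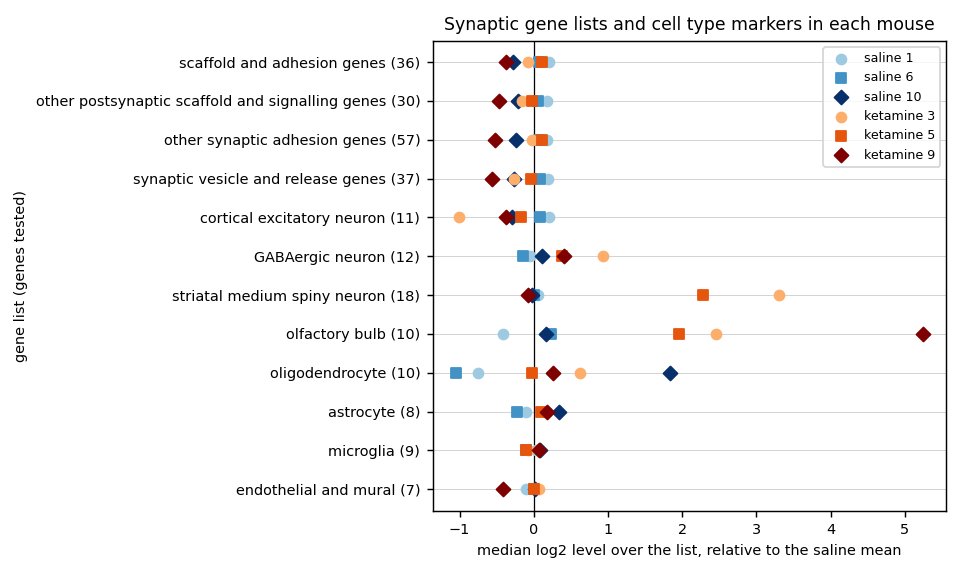
Median log2 level over each gene list relative to the saline mean (horizontal axis), 1 symbol per mouse, for the 36 genes, 3 lists of other synaptic genes and 8 lists of cell type or region markers. Synaptic lists are lowest in ketamine mouse 9, oligodendrocyte markers highest in saline mouse 10 at 1.84, striatal markers in ketamine mouse 3 at 3.31, and olfactory bulb markers in ketamine mouse 9 at 5.25.

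Lists of other synaptic genes had their lowest medians in ketamine mouse 9 too. Of 30 further scaffold and signalling genes of the postsynaptic density, 26 were lower in ketamine by the fitted values, beside 53% of all genes tested. Their median log2 fold change was -0.21, and 1 of them had an unadjusted p under 0.05 by limma (5.81% of all genes). That gene was Kalrn, which shapes the actin of dendritic spines, with 23819, 21046 and 17579 normalized counts with saline and 10893, 18676 and 8400 with ketamine. Next were Mpp3 and Abi1, with log2 fold changes of -0.33 and -0.24 and every ketamine mouse below every saline mouse. Such an order was found for 4 of the 30 genes, and the opposite order for 0. Among all genes tested these shares were 4.66% and 5.69%. The list median in each mouse was 0.18, 0.06 and -0.22 in the saline mice and -0.16, -0.02 and -0.47 in the ketamine mice.

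Of 57 further adhesion genes, 39 were lower by the fitted values, beside 53% of all genes tested. Their median was -0.14, and 8 had an unadjusted p under 0.05 by limma (beside 5.81% of all genes). Of these 8, Ntng1, Cntnap3 and Mdga1 were higher in ketamine, with log2 fold changes of 0.83, 0.97 and 1.05, and the others were lower. Every ketamine mouse lay below every saline mouse for 5 of the 57 genes and above for 3, beside 4.66% and 5.69% of all genes. Ephb2, a receptor tyrosine kinase that clusters NMDA receptors, had 667, 611 and 804 normalized counts with saline and 415, 392 and 313 with ketamine. All its ketamine values were below all saline values, in ketamine mouse 9 as in the other two, and its log2 fold change was -0.89 ± 0.175 (SE, adjusted p = 0.328 by limma, 0.0047 by DESeq2). Over the 3 further synaptic lists, of 30, 57 and 37 genes, Ephb2 was the only gene that DESeq2 called, beside 1.13% of all genes. Nptx1, a secreted pentraxin that gathers AMPA receptors, had 9944 to 12100 counts with saline against 4574 to 8937 with ketamine, a log2 fold change of -0.85 (adjusted p = 0.617 by limma). Ntng1, which encodes netrin-G1, an adhesion protein of axons, had 333 to 494 counts with saline against 564 to 902 with ketamine, a log2 fold change of 0.83 (adjusted p = 0.551 by limma).

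On the presynaptic side, 31 of 37 genes of vesicles and release were lower by the fitted values, beside 53% of all genes tested. Their median log2 fold change was -0.31, and 1 of them had an unadjusted p under 0.05 by limma (5.81% of all genes). The median relative level over these genes was 0.19, 0.08 and -0.26 in the saline mice and -0.27, -0.04 and -0.56 in the ketamine mice. Over the 36 scaffold and adhesion genes, ketamine mouse 9 was at -0.37. Rph3a, Rims1 and Dnm1 had the smallest p of this list, with log2 fold changes of -0.65, -0.70 and -0.44, and limma called 0 of the 37.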

How the data were processed

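RNA Seq libraries of PLc tissue came from 3 saline and 3 ketamine mice, grouped by the sample labels. The authors aligned 100 base paired-end reads to mm9 with Tophat 2.0.11, counted them per gene with HTSeq and normalized them with DESeq2. The annotation, strand setting and filters are not given in the sources used here. Per gene, the deposited signal is the count divided by the size factor of its library, and dividing by the value of 1 read gave whole reads for 100.0% of values in each library (tolerance 0.011). Columns were matched to samples by mouse number, which differs between the groups.

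Log2(normalized count + 1) was compared with limma 3.58.1 (R 4.3.3, trend in the prior variance, two-sided, Benjamini-Hochberg over 16127 genes with a mean of at least 10). The count tests were edgeR 4.0.16 and DESeq2 1.42.0 on recovered reads. Exact permutation tests were two-sided over 6 mice. Exon lengths and positions are those of GENCODE M1 (37205 identifiers found). The 36 genes and all lists were chosen with earlier results of these data known. Values by mouse are given for the 12 genes with the smallest p and the most abundant gene per length of each role. Other genes given by mouse, Dlg2 among them, were chosen after their values were seen. From each list of other synaptic genes, the 3 with the smallest p are named. Alternatives were other pseudocounts, filters, scalings and tests, each mouse left out, and ketamine mice 3 and 5 left out. Leaving out saline mouse 10 and ketamine mouse 9, centring by exon length and using the longest transcript were also tried, the first 2 chosen after seeing the data. The scripts were tested on simulated reads. Labels do not say whether mice shared a litter or day of dissection. Protein sequences were not used here.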

Additional observations from a re-analysis of the deposited data

How the results depend on the processing

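Of the 21 genes given in full, 13 kept the direction of their log2 fold change under all 18 alternatives and 8 did not, and none was called under any of them. The reversals were: without ketamine mice 3 and 5, which leaves 1 ketamine mouse assumed to vary like the others, Cntnap4 -0.0296, Il1rapl1 -0.14 and Cntnap2 -0.48; without saline mouse 10 and ketamine mouse 9, Nrxn2 -0.11, Il1rapl1 -0.10, Baiap2 -0.13 and Gphn 0.0109; and for Gphn also 0.0128 with upper-quartile scaling and 0.0009 with edgeR. With each mouse left out in turn, the ranges that included both signs were -0.50 to 0.0126 for Ptprs, -0.25 to 0.0167 for Nlgn2, -0.10 to 0.20 for Nrxn2, -0.21 to 0.33 for Il1rapl1, -0.18 to 0.32 for Cntnap2, -0.13 to 0.11 for Baiap2 and -0.054 to 0.0289 for Gphn. The cause was not tested. The count of genes called was 182 with DESeq2, 587 without saline mouse 10 and ketamine mouse 9, and 0 to 1 with each mouse left out. The median of the 36 genes ranged from -0.32 to 0.01 with each mouse left out, and the median level was 838 per kb of the longest transcript. No paired analysis was possible because the labels give no pairing of saline mice with ketamine mice. With 3 mice a group, intervals are wide, and a p that misses the threshold does not show equal expression.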

Other observations

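For 7 families with at least 3 of the 36 genes, each gene's part of the summed normalized counts per kb was computed in each mouse, which gave 26 shares. The groups did not overlap for 4 of them, all higher in ketamine, and these were singled out after their values were seen. Shares of a family sum to 100% and are not independent, and a higher share is not a higher level: the log2 fold change of Dlgap4 was -0.10. Of single genes, by their levels, 5.69% had every ketamine mouse above every saline mouse, and no such background was computed for shares. Lrrtm4 made up 12.1%, 12.4% and 13.6% of the LRRTM family with saline, against 14.8%, 15.3% and 18.2% with ketamine. Slitrk4 made up 9.84%, 9.43% and 9.31% of the SLITRK family with saline, against 11.9%, 10.9% and 13.0% with ketamine. Cadm1 made up 11.95%, 13.5% and 13.0% of the SynCAM family, against 18.4%, 14.8% and 14.8%. Dlgap4 made up 19.96%, 20.2% and 20.1% of the GKAP family with saline, against 21.5%, 20.7% and 23.6% with ketamine. For each of the 4, the exact permutation p was 0.1, the smallest possible, and 0.65 when adjusted over the 26 shares. Dlg4 held 63.3% to 71.8% of the MAGUK family in the 6 mice, and Dlg2 held 9.51% to 12.6% in 5 mice and 3.36% in ketamine mouse 9.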
